A study of Mus musculus with 4 samples.

Results

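The genes described here encode 10 enzymes that build or break down triglyceride: Gpam, Agpat2, Lpin1, Lpin2, Dgat1, Dgat2, Mogat1, Pnpla2, Pnpla3 and Mgll. They were chosen by gene name, with earlier results of these data known. On the expression array they were found as 10 of its 31709 genes, through 16 of its 39429 probes. The 4 IlrunKO samples were liver RNA of male mice in which Ilrun was knocked out in the whole body. The 4 WT samples were liver RNA of male controls. Strain C57BL/6, chow diet and a 4 h fast before harvest were common to both genotypes. Each of the 4 arrays carried 1 IlrunKO and 1 WT sample in different dyes, arrays 1 and 2 having IlrunKO in Cy5 (red) and arrays 3 and 4 in Cy3 (green). The sources used here do not give the deleted part of Ilrun, the age of the mice, their litters or any pooling.

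Liver makes triglyceride by adding fatty acids to glycerol-3-phosphate in steps. Gpam adds the first fatty acid and Agpat2 the second, lipins remove the phosphate to give diacylglycerol, and Dgat1 or Dgat2 adds the last. Mogat1 reaches diacylglycerol by another route, from monoacylglycerol. In the opposite direction Pnpla2 (adipose triglyceride lipase) removes the first fatty acid from stored triglyceride, and Mgll splits the monoacylglycerol left at the end of the chain. Pnpla3 is a relative of Pnpla2 found on lipid droplets.

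Every value rests on probes of 60 bases. The first 30 bases are shown, written as the files give them, for some of the genes whose estimates stood farthest from 0 and for those whose probes differed. Lower case is used throughout and no part is marked. Positions are those of mouse genome mm9 in the files, and exons and untranslated regions were not assigned.
Lpin1 brighter probe, chr12:16543695-16543754, minus strand: aggtctcatgtggtccacatagttcacagg
Lpin1 dimmer probe, chr12:16542515-16542574, minus strand: attatccatgaatgaggcctaatgacagtg
Lpin2 probe, chr17:71596935-71596994, plus strand: agcagaagaacaaatgcacagttcatgtct
Mogat1 probe, chr1:78534677-78534736, plus strand: ccttcctccaaggcataagaaaggaaggca
Dgat1 probe, chr15:76333128-76333274, minus strand: atccccgtgcacaagtggtgcatcagacac
Mgll brightest probe, chr6:88778292-88778351, plus strand: aattactaaagaagccaatgtgcactacag
Mgll variant probe, chr6:88714636-88714695, plus strand: tatgatgagctggctcatatgttgaagggg
The Dgat1 probe covers more genome than its own length, so its target sequence is split there. The brightest and the variant Mgll probe lie 63656 bases apart and are assigned by the files to different transcript variants.

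Signal was well above background for 60% to 67.3% of probes in every channel, and all arrays shared 1 slide and 1 scan. The brighter Ilrun probe stood at a log2 ratio of -4.21 ± 0.24 (SD, n = 4) and the other at -2.15 ± 0.34 (SD, n = 4). Every array lay between -4.56 and -4.04 at the first and between -2.59 and -1.78 at the other, so the genotype labels held on each array. A log2 ratio of IlrunKO over WT was formed on each array, and the words rose and fell are kept for a Benjamini-Hochberg adjusted p under 0.05 in limma over 19658 genes tested. On replication, the labels say only that the samples are biological replicates. The limma model held a dye term, so its p-values measure the spread between arrays of the same dye orientation, not the spread over all 4 arrays. The number of arrays limits the precision.

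None of the 9 enzyme genes tested rose or fell in IlrunKO liver, against 269 of 19658 genes over the whole array (1.37%). Their log2 ratios ran from -0.47 for Lpin1 to 0.35 for Mogat1, with a median of 0.18 beside -0.0014 for all genes tested. Both lipins and Gpam had negative estimates, and Dgat1, Dgat2, Mogat1, Pnpla2 and Mgll had positive ones. The glycerol-3-phosphate route thus held estimates of both signs. Agpat2 was near 0 and Pnpla3 was too dim to be tested. Without adjustment 7 of the 9 had a limma p under 0.05, where 20.5% of all genes did. That count was 3, 5, 2 and 1 when array 1, 2, 3 or 4 was left out, and 3 with Agilent processed signals or with median centring. The share of all genes in those settings was not computed, so these counts cannot be set against it. In a fit of the single channels that estimates the correlation within a spot, Dgat1 and Mgll passed (adjusted p = 0.0343 and 0.0450), where 12.7% of all genes did. In whole liver, fewer cells of a type and less RNA per cell cannot be told apart.

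**Figure D1:**
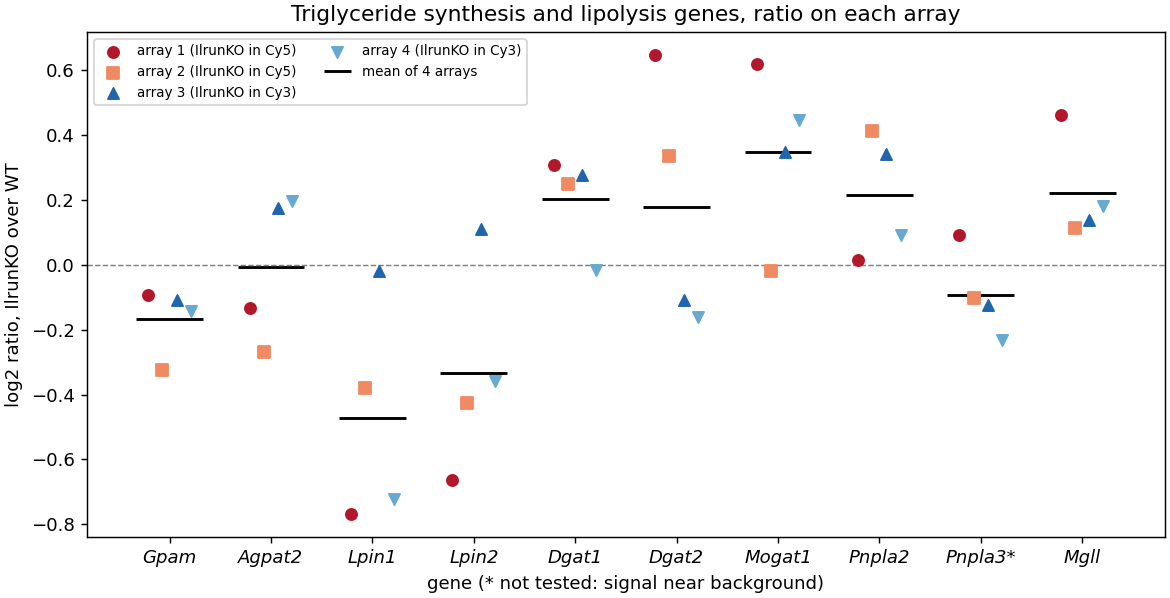
Log2 ratio of IlrunKO over WT (vertical axis) for the 10 genes, 1 point per array, with colour and shape giving the array and the dye of IlrunKO and a bar at the mean of 4 arrays. The brightest probe of each gene is shown. Gpam and Lpin1 lie below 0 and Pnpla2 and Mgll above 0 on 4 of 4 arrays, and for Dgat2 and Agpat2 the arrays of the 2 dye orientations lie on opposite sides of 0.

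All 9 genes tested were well above background in 4 of 4 IlrunKO and 4 of 4 WT channels, so none entered the test through 1 genotype alone. At the brightest probe, ratios of 1 sign on all arrays were found for 4 of the 9 genes (Gpam and Lpin1 below 0, Pnpla2 and Mgll above 0), where 23.3% of all genes had this. For 0 of the 9 were the 4 IlrunKO levels all above or all below the 4 WT levels, where 9% of all genes had this. Levels here are log2 intensities of single channels after normalisation, and they are comparable between samples for a probe but not between probes.

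**Figure D2:**
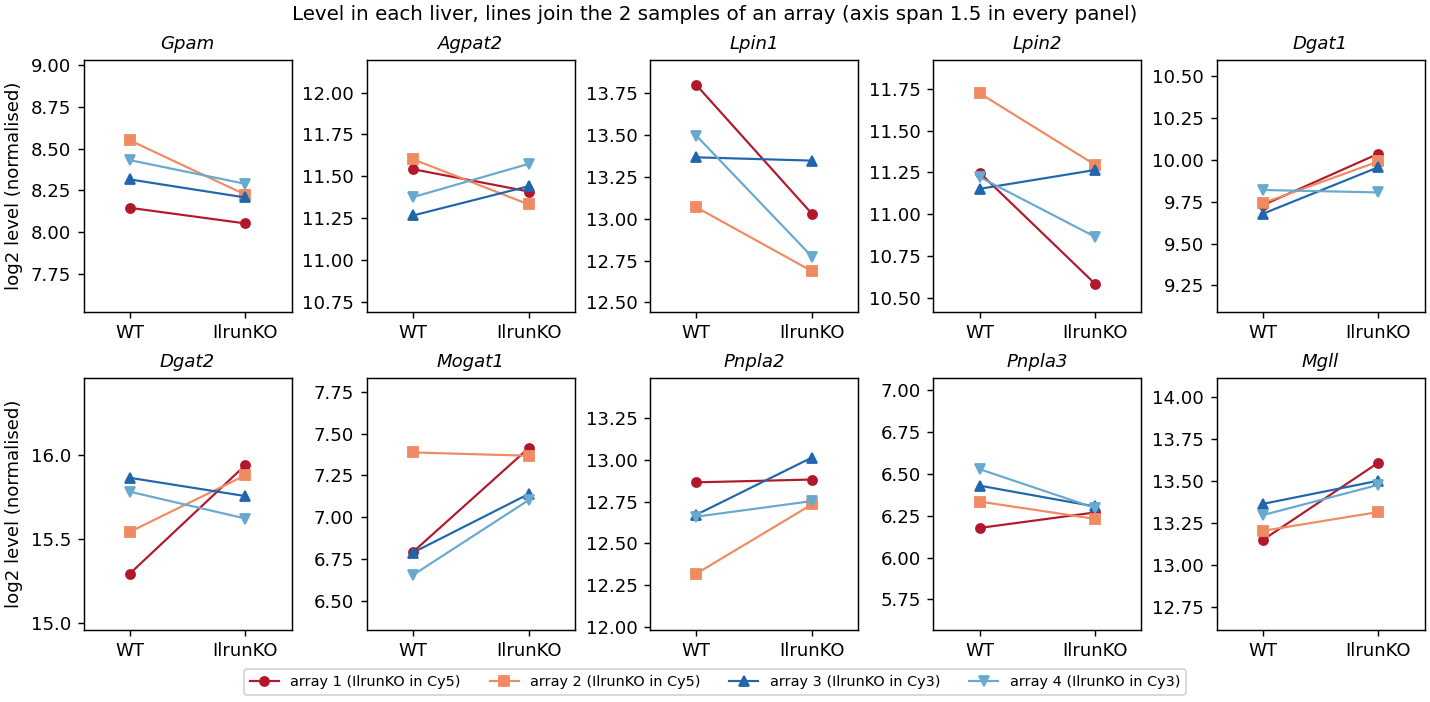
Normalised log2 level (vertical axis, spanning 1.5 in every panel) in the WT and IlrunKO liver of each array, joined by a line, at the brightest probe of each gene. In every panel the range of the 4 IlrunKO levels overlaps that of the 4 WT levels.

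Lpin1 had the estimate farthest from 0 of the 9 in the analysis reported. Mogat1 was farther with a normexp offset of 0 (0.60 beside -0.48 for Lpin1) and with Agilent processed signals (0.75 beside -0.47). It was also farther with the deposited table (0.50 beside -0.47) and without array 4 (0.32 beside -0.30). Lpin1 encodes lipin-1, a phosphatidate phosphatase that fasting induces in liver and that also acts as a coactivator of PPARalpha target genes. At its brighter probe the log2 levels of arrays 1 to 4 were 13.80, 13.07, 13.37 and 13.50 in WT and 13.03, 12.69, 13.35 and 12.77 in IlrunKO. On arrays 1, 2 and 4 the IlrunKO level lay below every WT level, but array 3 had nearly the same level in both genotypes. The log2 ratios were -0.77, -0.38, -0.02 and -0.72, a mean of -0.47 ± 0.35 (SD, n = 4), or 1.39-fold lower. The limma 95% confidence interval was -0.83 to -0.12, and the adjusted p of 0.161 missed the threshold. Without array 4 the estimate was -0.30.

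The dimmer Lpin1 probe, 1180 bases away, stood farther from 0. Its spot was marked as an outlier on array 1 and left out. On arrays 2, 3 and 4 its levels were 8.20, 8.54 and 8.74 in WT and 7.68, 7.56 and 7.24 in IlrunKO. These 3 pairs of levels did not overlap. With 3 pairs this is easier to reach than with 4, and the share of all probes that do so was not computed. The ratios were -0.52, -0.99 and -1.51, a mean of -1.01 ± 0.49 (SD, n = 3), while the limma estimate, in which each dye orientation weighs the same, was -0.89 (adjusted p = 0.0743 over 24357 probes, of which 1.51% passed). Array 3 gave the 2 Lpin1 probes their widest disagreement, with -0.02 at one and -0.99 at the other. With the marked spot kept, a choice made after seeing the data, the probe passed (-0.89, limma adjusted p = 0.0361). It passed in 5 of the 12 alternative settings that could be fitted, with adjusted p from 0.0175 to 0.203, and in none of the 12 was its estimate above 0.

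Lpin2 encodes lipin-2, the other main lipin of liver, and lies on the chromosome that also carries Ilrun. Its log2 levels were 11.25, 11.72, 11.15 and 11.22 in WT and 10.59, 11.30, 11.26 and 10.87 in IlrunKO. Array 2 had the highest level of both genotypes, and array 3 was the exception to the lower IlrunKO level of the other 3. The ratios were -0.66, -0.43, 0.11 and -0.36, a mean of -0.33 ± 0.33 (SD, n = 4). Lpin2 had the smallest unadjusted p of the 9 genes (0.0183), with a limma interval of -0.58 to -0.09 and an adjusted p of 0.159. Array 3 was thus the array with the highest ratio for Lpin2 and for the brighter Lpin1 probe.

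Over the 4 arrays, the 3 genes tested whose ratios lay nearest to those of Lpin2 were Dhrs7, Hbb-bt and Zpr1, at Euclidean distances of 0.0831, 0.154 and 0.196. Like Lpin2, Dhrs7 and Hbb-bt were above 0 on array 3 (0.10 and 0.23) and below it on the other 3. Hbb-bt encodes an adult beta globin chain of red blood cells. None of the 3 passed the test, with limma estimates of -0.32, -0.30 and -0.36 (adjusted p = 0.158, 0.251 and 0.0863). With only 4 arrays such likeness is a description.

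Gpam encodes the mitochondrial glycerol-3-phosphate acyltransferase, which commits fatty acids to glycerolipid synthesis. Its log2 levels at the brighter probe were 8.15, 8.55, 8.32 and 8.43 in WT and 8.05, 8.23, 8.21 and 8.29 in IlrunKO. IlrunKO was the lower sample on each array, while the spread between arrays was as wide as the difference. The ratios were -0.09, -0.32, -0.11 and -0.14, a mean of -0.17 ± 0.11 (SD, n = 4), with a limma interval of -0.32 to -0.02 and an adjusted p of 0.211. Its other probe, 1015 bases away, gave -0.16 ± 0.17 (SD, n = 4, limma adjusted p = 0.321 over all probes) with array 4 at 0.04. Agpat2, which adds the second fatty acid, had ratios of -0.13, -0.27, 0.17 and 0.20. Its limma estimate was -0.0074, with an interval of -0.14 to 0.12 (adjusted p = 0.954), and both arrays of 1 dye orientation opposed both arrays of the other.

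Dgat1 and Dgat2 encode unrelated enzymes for the last step. Dgat1 levels were 9.73, 9.74, 9.68 and 9.82 in WT and 10.04, 9.99, 9.96 and 9.80 in IlrunKO. On arrays 1 to 3 IlrunKO was above every WT level, and array 4 kept the genotypes from separating. Dgat1 ratios were 0.31, 0.25, 0.28 and -0.01, a mean of 0.20 ± 0.15 (SD, n = 4), or 1.15-fold higher, with a limma interval of 0.04 to 0.37 and an adjusted p of 0.187.

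Dgat2 levels were 15.29, 15.54, 15.87 and 15.78 in WT and 15.94, 15.88, 15.76 and 15.62 in IlrunKO. The ratio differed between the dye orientations: it was 0.65 and 0.34 with IlrunKO in Cy5 and -0.11 and -0.16 with IlrunKO in Cy3. Its mean was 0.18 ± 0.38 (SD, n = 4), and the limma interval of 0.0043 to 0.35 (adjusted p = 0.236) counts only the spread within each orientation. Without the dye term the adjusted p was 0.661. Between orientations, mice and dyes differ together and cannot be told apart.

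Mogat1 had the highest estimate of the 9, except without array 1, where it was 0.19 and that of Pnpla2 0.31. Its log2 levels were 6.79, 7.39, 6.79 and 6.66 in WT and 7.41, 7.37, 7.14 and 7.10 in IlrunKO. The WT liver of array 2 stood among the IlrunKO levels, while the other 3 WT livers were below all of them. The ratios were 0.62, -0.02, 0.35 and 0.45, a mean of 0.35 ± 0.27 (SD, n = 4), or 1.27-fold higher. The limma interval was 0.06 to 0.64 and the adjusted p was 0.191. The estimate was 0.75 with Agilent processed signals.

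Both lipase genes tested, Pnpla2 and Mgll, had a higher IlrunKO level on each array at the brightest probe, and neither passed. Pnpla2 levels were 12.86, 12.32, 12.67 and 12.66 in WT and 12.88, 12.73, 13.01 and 12.75 in IlrunKO. Arrays 2 and 3 carried most of the Pnpla2 difference. The ratios were 0.02, 0.41, 0.34 and 0.09, a mean of 0.22 ± 0.19 (SD, n = 4), with a limma interval of -0.01 to 0.44 and an adjusted p of 0.261.

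Mgll levels at the brightest probe were 13.15, 13.20, 13.36 and 13.29 in WT and 13.61, 13.31, 13.50 and 13.48 in IlrunKO. Array 1 stood above the other 3, with a ratio of 0.46 beside 0.11, 0.14 and 0.18. The mean was 0.22 ± 0.16 (SD, n = 4), with a limma interval of 0.04 to 0.41 and an adjusted p of 0.190. Mgll had 3 further probes. A probe near the brightest and the variant probe gave 0.12 ± 0.28 and 0.12 ± 0.30 (SD, n = 4, limma adjusted p = 0.458 and 0.431 over all probes), and array 1 was not their highest value. The nearby probe was below 0 on array 2 (-0.25), and the variant probe on arrays 1 and 2 (-0.05 and -0.18). The dimmest was well above background in 2 of 4 IlrunKO and 2 of 4 WT channels, stood at -0.01 ± 0.16 (SD, n = 4) and was not tested.

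**Figure D3:**
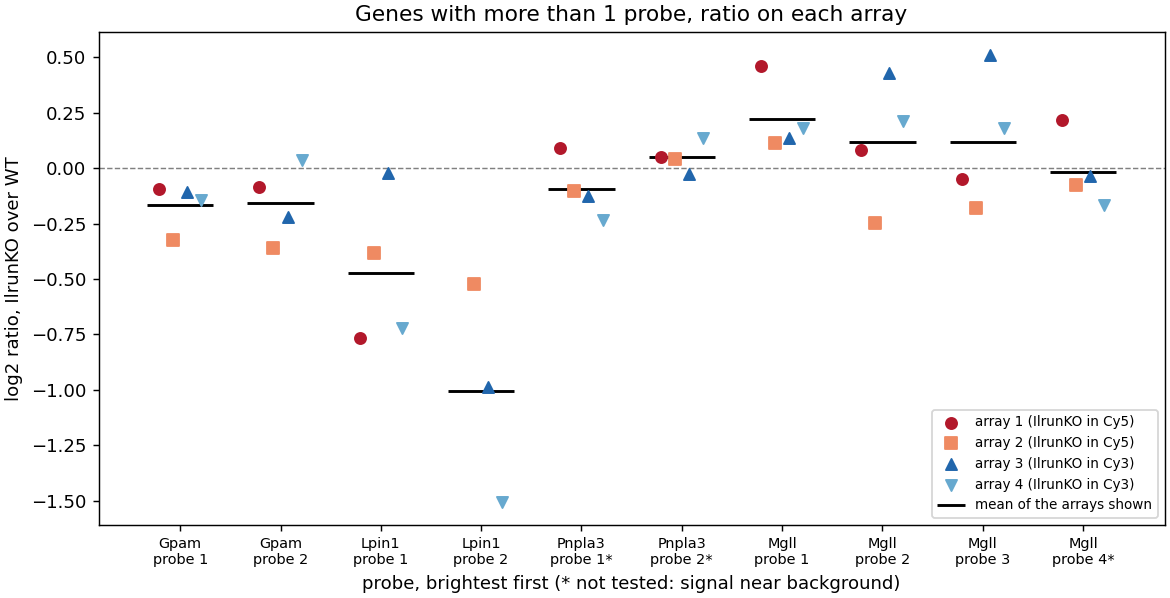
Log2 ratio of IlrunKO over WT (vertical axis) at every probe of the 4 genes with more than 1 probe, brightest first, 1 point per array and a bar at the mean of the arrays shown. The dimmer Lpin1 probe, without array 1, lies between -0.52 and -1.51, and the other Mgll probes lie closer to 0 on average than the brightest.

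Pnpla3 was close to the limit of detection in these fasted livers. Its brighter probe was well above background in 0 of 4 IlrunKO and 2 of 4 WT channels, and the other, 3383 bases away, in 1 of 4 and 0 of 4. Ratios at the brighter probe were 0.09, -0.10, -0.12 and -0.23, a mean of -0.09 ± 0.14 (SD, n = 4). The other probe had a mean of 0.05 ± 0.07 (SD, n = 4). No difference in Pnpla3 was detectable at this signal.

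**Figure D4:**
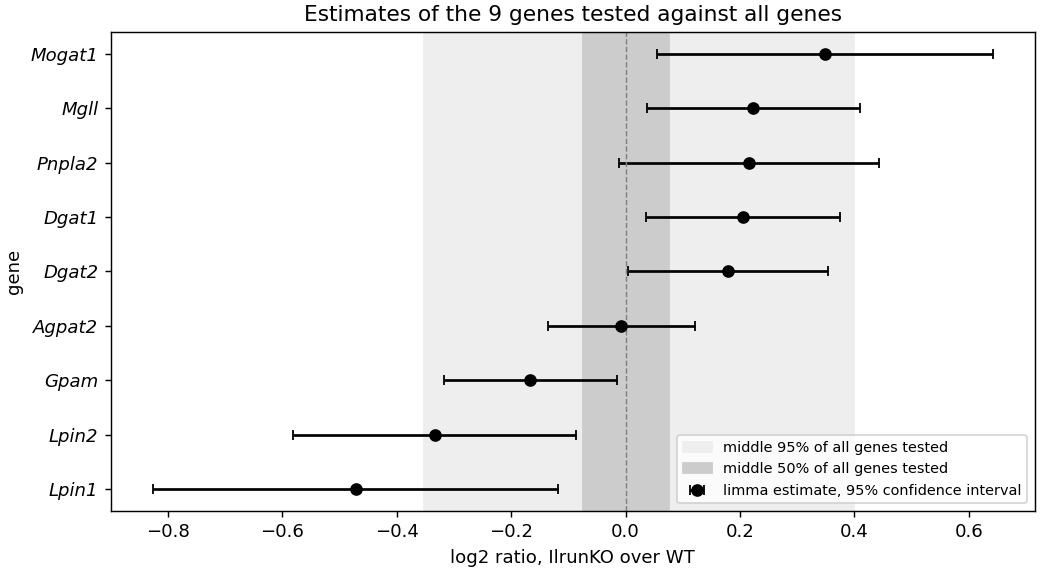
Limma estimate (point) and 95% confidence interval (line) of the log2 ratio of IlrunKO over WT (horizontal axis) for the 9 genes tested, over bands that hold the middle 50% and the middle 95% of estimates of all genes tested. Only Lpin1 lies outside the wider band of -0.35 to 0.40, and the interval of each gene overlaps it.

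Other genes of the pathway were read from 5 lists, with 62 tested genes in all, and 0 of 62 passed limma's test (1.37% of all genes), while 19 had an unadjusted p under 0.05 (20.5% of all genes). Of 12 other acyltransferases and phosphatidate phosphatases, 8 lay above 0, with a median of 0.09. Gpat3, a glycerol-3-phosphate acyltransferase of the endoplasmic reticulum, stood highest at 0.71 ± 0.28 (SD, n = 4), with 0.61, 0.65, 1.105 and 0.46 on the arrays (limma adjusted p = 0.0678). Mogat2, a relative of Mogat1, stood at 0.54 ± 0.41 (SD, n = 4, limma adjusted p = 0.139), with array 2 at 1.12. Gpat3 and Gpam thus had estimates of opposite sign for the same reaction.

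Among 16 other lipases and lipase cofactors the median was -0.02. Pnpla7, a lysophospholipase of the Pnpla family, was lowest at -0.72 ± 0.22 (SD, n = 4), with -0.50, -0.98, -0.81 and -0.59 on the arrays. Its limma adjusted p was 0.0507, just short of the threshold, and it passed in 8 of 17 alternative settings. Abhd5, the coactivator of Pnpla2, stood at -0.33 ± 0.15 (SD, n = 4, limma adjusted p = 0.101), below 0 on 4 of 4 arrays where Pnpla2 was above 0. G0s2, the protein inhibitor of Pnpla2, ranged from -0.79 to 0.79 between arrays and gave no estimate clear of 0 (-0.26, limma adjusted p = 0.470); it was added for its role, after its values were seen.

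For the supply of glycerol and acyl-CoA, 9 genes had a median of 0.0024, with Acsl5 at -0.38 (limma adjusted p = 0.121) and the glycerol kinase gene Gk at -0.32 (0.206). For enzymes that turn phosphatidate or diacylglycerol into phospholipid, or back, 13 genes had a median of -0.04. There the phosphatase gene Plpp2 stood at -0.39 (limma adjusted p = 0.114) and Pemt, which methylates phosphatidylethanolamine, at -0.30 (0.128). Of 12 regulators, with a median of -0.06, Pparg stood at 0.69 ± 0.36 (SD, n = 4, limma adjusted p = 0.0994) and Ppara at -0.18 ± 0.18 (SD, n = 4, limma adjusted p = 0.131). PPARgamma, the product of Pparg, is known to drive Mogat1, Cidec and other lipid storage genes in fatty liver.

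Markers of other cell types were read beside these values. Of 9 adipocyte markers tested, Cfd (3.82 ± 1.22) and Adrb3 (1.04 ± 0.34) rose (SD, n = 4, limma adjusted p = 0.0465 and 0.0301), where 1.37% of all genes rose or fell. The list was chosen with earlier results of these data known, so the share of all genes is no independent yardstick for it. Of the 9, 8 lay above 0 on 4 of 4 arrays, where 23.3% of all genes had 1 sign, in either direction, on all arrays. Of these 8, Retn was well above background in 3 of 4 IlrunKO but only 2 of 4 WT channels, so it was tested through IlrunKO alone. Cidec stood at 1.53 (limma adjusted p = 0.0546), Car3 at 0.92 (0.157), Pparg at 0.69, Cidea at 0.42 (0.101), Lipe at 0.21 (0.116), Retn at 0.14 (0.215) and Fabp4 at -0.11 (0.327). The list's summed signal ran from 102919 to 153656 in IlrunKO and from 42952 to 91223 in WT livers, and Car3 alone made up 94.9% of it. The defining fat cell markers Adipoq, Plin1 and Lep were not well above background in any channel. The calls of Cfd and Adrb3 are lost without array 3 (3.19 and 1.11) and without array 4 (4.45 and 0.97). In each of these settings only 1 of all genes passed, so the losses say little about Cfd or Adrb3. The call of Cfd is also lost without array 1 (3.42). In 17 alternatives in all, Cfd passed in 9 and Adrb3 in 14. Without array 2, 5 of the 9 markers passed, where 259 of 19578 genes did over the whole array.

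**Figure D5:**
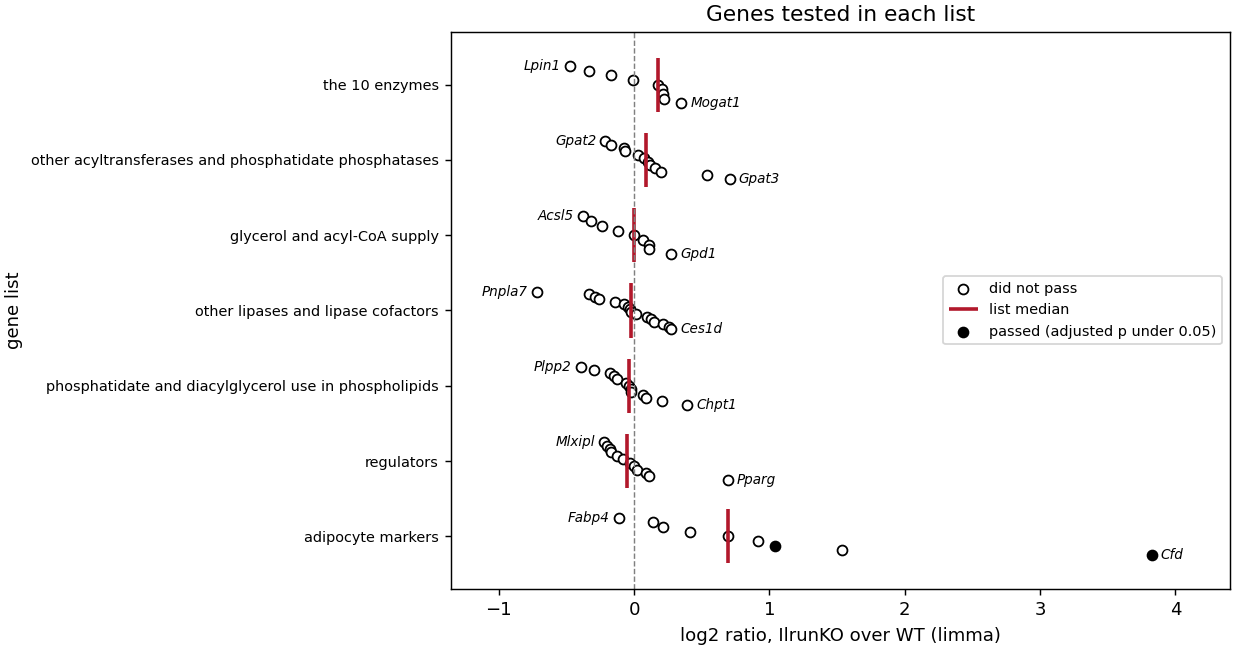
Limma log2 ratio of IlrunKO over WT (horizontal axis) of each gene tested in the enzyme set, the 5 pathway lists and the adipocyte markers, with a bar at each list's median and filled points for genes that passed. The 2 filled points are Adrb3 and Cfd. Pparg stands in both of the last 2 lists, and Lipe in both the other lipases and the adipocyte markers.

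Kupffer cell and macrophage markers lay above 0 in 13 of 14 cases and 0 passed, with Cd68 at 0.21 and Cd163 at -0.25 (limma adjusted p = 0.116 and 0.121). Array 1 stood apart, with a mean of -0.17 over the 14 markers beside 0.87, 0.54 and 0.51. Without it 12 of the 14 passed, where 465 of 19619 genes did over the whole array. Their summed signal was 41389 to 62319 in IlrunKO and 31885 to 50034 in WT. Stellate cell and fibroblast markers lay below 0 in 12 of 12 cases and 0 passed, with Colec11 at -0.34 and Ecm1 at -0.35 (limma adjusted p = 0.0527 and 0.0669). Their summed signal was 25716 to 37354 in IlrunKO and 37894 to 40626 in WT, with 83.3% of it from Dcn and Ecm1. Of 12 hepatocyte markers, all were measured and 11 lay below 0, with a median of -0.20 (Trf at -0.62 and Alb at -0.36, limma adjusted p = 0.0738 and 0.0855). Both differed between dye orientations, Alb being 0.53, 0.21, -1.07 and -1.11 and Trf -0.24, 0.34, -1.37 and -1.23 on arrays 1 to 4. The mean over the 12 markers was -0.10, 0.19, -0.50 and -0.42, so it was lower on the arrays with IlrunKO in Cy3. Only 3 of the 12 lay below 0 on 4 of 4 arrays, and 1, Asgr1, lay above 0 on 4 of 4. The summed signal overlapped, at 754563 to 1202940 in IlrunKO and 916573 to 1244970 in WT. The part of these markers in the enzyme values was not tested.

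Among blood cell markers, Nkg7 of cytotoxic lymphocytes fell (-0.76 ± 0.26, SD, n = 4, limma adjusted p = 0.0301), and it passed in 13 of 17 alternatives. The call did not hold without array 3 (-0.763), without array 4 (-0.757) or with median centring (-0.86), where only 1 of all genes passed in each. It also did not hold with the mean of its probes (-0.30). In the same list 7 of the 8 genes tested lay below 0, and Alas2 stood at -0.41 (limma adjusted p = 0.194). Over the whole array 50.6% of genes tested lay below 0. Endothelial markers lay below 0 in 11 of 12 cases, with a median of -0.06, Oit3 at -0.26 and Bmp2 at -0.31 (limma adjusted p = 0.0784 and 0.0944). Of cholangiocyte markers 4 of 6 were tested, with Sox9 at 0.32 and Spp1 at -0.12 (limma adjusted p = 0.179 and 0.278). Of 8 skeletal muscle and pancreas markers only Cela1 was tested (0.04, limma adjusted p = 0.865).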

How the data were processed

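Per the labels, 4 IlrunKO and 4 WT samples of mouse liver RNA (500 ng each) were labelled with Cy5 or Cy3 and hybridised in pairs. The authors deposited scanner files with spot intensity and its local background, processed intensity, and the log10 of Cy5 over Cy3; per the file headers, the software was Agilent Feature Extraction 10.10.1.1 and the genome mm9. Their deposited value table holds log2 ratios of IlrunKO over WT, as checked against the scanner ratio of Cy5 over Cy3 (r = 0.956, 0.943, -0.942 and -0.951 on arrays 1 to 4). Its column medians were -0.039, -0.043, 0.038 and 0.035, and it was made with limma per the submitters' processing notes, with the normalisation not given in the sources used here.

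Here mean intensities were background-corrected with normexp (offset 50) and normalised by loess within arrays with limma 3.58.1 in R 4.3.3 (files read with the package data.table, version 1.17.8), with 1377 control spots at weight 0. Spots marked as outliers were left out (381, 280, 239 and 224). Levels of single channels were also Aquantile-normalised. Of the probes, 26055 were named by accession, 4125 by symbol or synonym and 9249 by the file alone. The brightest probe stood for a gene, tested where its signal was well above background in 3 or more of 4 channels of 1 genotype and it had at least 3 ratios. The model held genotype and dye, two-sided, with 2 residual and 2.83 prior degrees of freedom. Array number pairs the livers only by hybridisation.

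Named were the enzymes with every probe, the genes that passed or else the 2 with the smallest p in each list, all adipocyte markers, and the 3 genes nearest to the enzyme gene with the smallest p. The enzymes and lists were chosen with earlier results of these data known. The fit was tested on simulated data, where it recovered 0.4% of changes of 0.25 in log2 ratio and 44.4% of changes of 0.5. It recovered 94% of changes of 1 and 98.8% of changes of 2, and 3.41% of all its calls were false. The lack of a call for the enzyme genes therefore does not show that they were unchanged. Alternatives changed the background correction and normalisation, the dye term, the filter, the choice of probe, variance model and weights of arrays, the deposited table, pairing by array, each array left out, the threshold and, added after seeing the data, outlier-marked spots. Sequences and positions of the remaining enzyme probes are not reported here.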

Additional observations from a re-analysis of the deposited data

Results flagged for a closer look

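In 67 groups of 4 values examined, 2 values stood apart from the other 3, where chance sets apart about 1 group in 20. The Lpin2 level of the WT liver on array 2, at 11.72, was the highest of the 4 WT livers and its gap to the next made up 0.83 of their range. The Acsl5 log2 ratio of array 1, at -0.0166, was the highest of 4, with a gap of 0.968 of the range, the other arrays lying between -0.51 and -0.49.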

How the results depend on the processing

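In 17 alternatives, 8 of the 9 enzyme genes tested kept the direction of their estimate, and Agpat2 turned to 0.0266 without array 2 (-0.0415 to 0.0266 over the fits without 1 array). Sizes were less stable: with median centring Dgat2 was 0.0047, Pnpla2 0.08, Mgll 0.08 and Dgat1 0.11, beside 0.18, 0.22, 0.22 and 0.20. The count of enzyme genes that passed was 0 in each setting except the separate-channel fit with an intraspot correlation, where it was 2 (Dgat1 and Mgll, adjusted p = 0.0343 and 0.0450) while 12.7% of all genes passed. Enzyme probes that passed numbered 2 there, and 1 (the dimmer Lpin1 probe) with no background correction, a trended and robust variance, the deposited table, an adjusted p of 0.10 or outlier-marked spots kept. With 8 independent channels, no replicate block for the array, 1 probe, 0 enzyme genes, 4 genes of the pathway lists and 600 of all genes passed.

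All genes that passed numbered 269 in the analysis reported, 440 with no background correction, 80 with Agilent processed signals, 1 with median centring, 412 with a trended and robust variance, 450 with the deposited table, 2492 with separate channels, 1126 at an adjusted p of 0.10, and 1 to 465 without 1 array. Genes of the pathway lists that passed numbered 1 with no dye term, no background correction, an offset of 0 or the deposited table, 2 with a trended and robust variance, 13 with separate channels, 3 at an adjusted p of 0.10, and 0 to 4 without 1 array. Without array 3 or array 4 only 1 of all genes passed, so those settings say little about any enzyme. The cause of these differences was not tested. Signal over background kept Pnpla3 and the dimmest Mgll probe out of the test.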
